A study of Mus musculus with 50 samples.

Results

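Interferon-stimulated genes are the genes that cells turn on when an interferon binds its receptor. A list of 39 of them was followed in dorsal root ganglia, the clusters of sensory nerve cells beside the spinal cord. Of the 39, 37 were named by a probe set that carries exactly 1 gene symbol, and the probe set with the highest mean stood for its gene. A gene was kept when this probe set lay above 4 on the log2 scale in at least 2 arrays, which left 30 genes of the 11204 tested in all. The Isg15 probe set also carries a second symbol and Ifi44 was not named, so neither is analysed here. The other 7, Oasl1, Irf7, Usp18, Mx2, Trim30a, Dhx58 and Zbp1, stayed under the filter.

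The mice were wildtype and naive, 2 months of age, and came from 25 inbred strains. Each strain gave 1 male and 1 female pool of RNA from 3 mice, and each pool was run on 1 Affymetrix expression array, 50 arrays in all. The labels name no infection and no interferon, so the values are read as resting levels, which was not tested. A strain is the group under comparison. The deposited values are intensities, given below as log2(intensity + 1), and the pair of pools is the only replication of a strain (n = 2).

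Type I interferons act through the receptor subunits Ifnar1 and Ifnar2 and the kinases Jak1 and Tyk2 on a transcription factor complex that holds Stat2 and Irf9. This complex binds a short DNA element that repeats GAAA before the genes it switches on. Interferon gamma has a receptor of its own, acts in part through Irf1, and switches on guanylate-binding proteins and immunity-related GTPases most strongly. A low tonic interferon signal is known to hold many of these genes at a measurable level in tissue without infection.

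The tissue label was checked with 13 markers of sensory neurons, among them Prph, Avil and Scn10a, whose mean log2 intensities ran from 8.30 to 13.4. Arrays had 18703 to 19327 probe sets above 4. The lowest intensity of an array lay between 1.629 and 1.655 in the male arrays and between 1.726 and 1.744 in the female arrays, without overlap, so that levels are compared between strains within a sex wherever possible. The male PL/J and female SM/J arrays carried transcripts of both sexes, with Xist at 8.97 and 9.43 and the Y chromosome gene Eif2s3y at 6.52 and 6.82. The male BTBT T+tf/J and female P/J arrays showed the widest excess of 3' over 5' probe signal for Gapdh, a control gene, at 0.60 and 0.34.

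Strain differences were wide among these genes. The moderated F test of limma over 25 strain means, with sex as a term, called 24 of the 30 kept genes at an adjusted p under 0.05, where it called 26.1% of all genes tested. The range of strain means had a median of 1.34 over the 30 genes and of 0.82 over all genes. A range of 2 or more was found in 8 of them, Ifi27l2a, Ifit3, Ifit1, Oasl2, Xaf1, Ifit2, Igtp and Rsad2, and in 5.28% of all genes. The filter lets a gene enter through 1 high strain, as it did Mx1, but 20 of the 30 lay above 4 in all 50 arrays. Ifi27, Ifitm2, Stat2, Gbp2, Irgm1 and Samhd1 were not called. The list was chosen with earlier results of these data known, so its counts are a description of these genes. Of 20 further interferon-stimulated genes, given below, 15% were called.

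The map of strain means shows which genes moved in which strains.

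**Figure D1:**
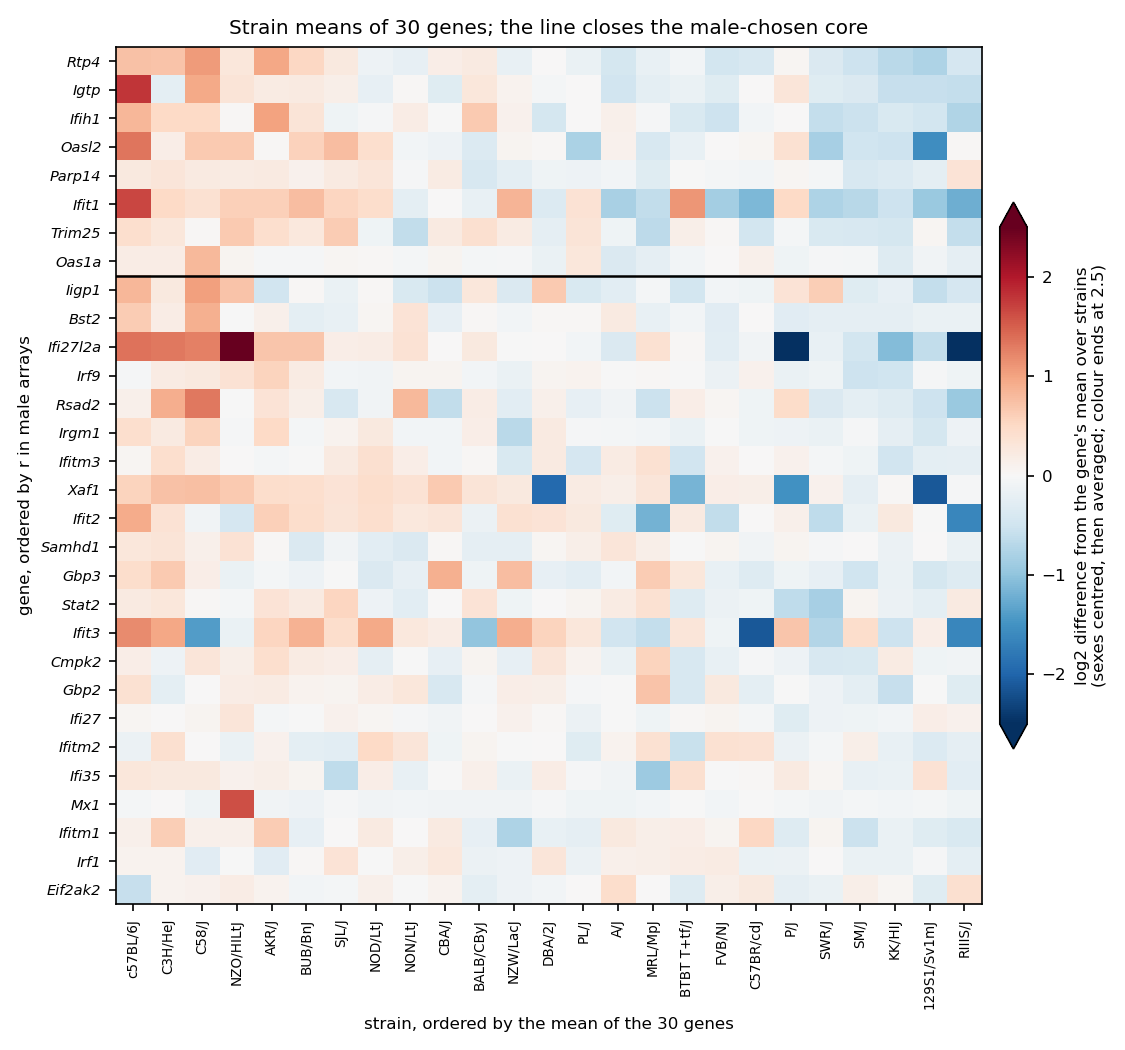
Difference of each gene's strain mean (log2) from its mean over the 25 strains, for the 30 kept genes (down the page, by their r with the other genes in male arrays) and 25 strains (across, by the mean of the 30 genes). The Ifi27l2a, Ifit3 and Xaf1 lines hold dark cells that the genes around them do not share, such as Ifi27l2a in NZO/HILtJ (3.58 above the other strains) and in P/J (3.88 below them).

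The Ifit genes encode proteins with tetratricopeptide repeats that bind viral RNA lacking host cap marks and block its translation. Ifit1 was highest in c57BL/6J, with 6.09 in the male and 6.26 in the female pool, and lowest in RIIIS/J, with 2.78 and 3.79. Its strain means had a median of 4.52 and a range of 2.89 (limma F test, adjusted p = 6.47e-06). Ifit2 was highest in c57BL/6J, with 7.68 in the male and 8.14 in the female pool, and lowest in RIIIS/J, with 5.22 and 5.47 (range 2.57, adjusted p = 2.56e-06). Ifit3 shared the highest strain but not the lowest. It had 7.25 and 7.55 in the c57BL/6J pools and 4.27 and 3.93 in those of C57BR/cdJ (range 3.30, adjusted p = 7.72e-07). The 3 genes lie close together on chromosome 19, with 0 protein-coding genes between Ifit2 and Ifit3, and their strain means correlated at r = 0.66 to 0.68 in each pair over 25 strains. These values share their arrays and are a description.

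Oligoadenylate synthetases sense double-stranded RNA and switch on RNase L, while Oasl2 belongs to the same family and is best known for its ubiquitin-like tail. Oasl2 stood at 8.25 in the male and 7.73 in the female c57BL/6J pool, and 4.88 and 5.33 in 129S1/Sv1mJ, its lowest strain. The range of strain means was 2.89 around a median of 6.68 (adjusted p = 4.38e-06). Oas1a sat close to the filter, above 4 in 6 arrays, and was highest in C58/J with 4.14 and 4.71 (range 1.18, adjusted p = 0.00639). That call ended without either C58/J array.

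Interferon-inducible GTPases coat and break the vacuoles of intracellular parasites and bacteria. Igtp, also known as Irgm3, stood at 8.29 in the male and 8.498 in the female c57BL/6J pool, and C58/J followed with a mean of 7.56. RIIIS/J was lowest with 5.76 and 6.27 (range 2.38, adjusted p = 1.61e-06). Iigp1, the effector GTPase Irga6, was highest in C58/J at 5.79 and 5.60 and second in c57BL/6J at a mean of 5.49 (range 1.64, adjusted p = 0.0402). Leaving out any of 27 single arrays ended its F test call. The further Iigp1 probe set was highest in DBA/2J at 3.99 and 5.09, with r = 0.67 between the strain means of both sets. Gbp3 had its own order, with 6.14 and 6.99 in CBA/J, a mean of 6.43 in NZW/LacJ and 5.07 and 5.25 in SM/J (range 1.40, adjusted p = 0.000102). Irgm1, a regulator of the other IRG proteins, and Gbp2 had ranges of 1.22 and 1.29 and adjusted p-values of 0.117 and 0.152.

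Sensors and the ligases that act on them followed. Ifih1 encodes Mda5, a sensor of long double-stranded RNA, and stood at 5.31 in the male and 5.78 in the female AKR/J pool against 3.74 and 3.85 in RIIIS/J (range 1.75, adjusted p = 0.000988). Trim25, a ubiquitin ligase that helps activate Rig-I, was highest in NZO/HILtJ at 7.99 and 7.44 and lowest in MRL/MpJ at 6.497 and 6.33 (range 1.297, adjusted p = 0.000567). The further Trim25 probe set (r = 0.84) was highest in BTBT T+tf/J at 7.43 and 7.36 and lowest in NON/LtJ. Eif2ak2 encodes Pkr, the kinase that halts translation on double-stranded RNA. It ran against the other genes in c57BL/6J, where it was lowest of all strains with 6.11 and 5.93, and was highest in A/J with 6.97 and 7.10 (range 1.01, adjusted p = 0.013). Its further probe set gave an adjusted p of 0.0563, with r = 0.57 between the strain means of both sets.

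Of the transcription factors of the pathway, Irf9 and Irf1 were called. Irf9, the partner of Stat2 that binds DNA, stood at 6.48 in the male and 6.45 in the female AKR/J pool and 5.42 and 5.36 in SM/J (range 1.07, adjusted p = 0.000711). Irf1 ranged by 0.63, with 6.95 and 7.05 in SJL/J and 6.29 and 6.44 in AKR/J (adjusted p = 0.0328), and its call ended without any of 10 single arrays. Stat2 ranged by 1.37 and was not called (adjusted p = 0.353), with r = 0.10 between its male and female values over the 25 strains. Irf7, the factor that amplifies interferon production, stayed between 2.45 and 2.87 in all 50 arrays.

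Of the other effectors, Rsad2 encodes viperin, which makes a chain-terminating nucleotide. It stood at 7.83 in the male and 7.31 in the female C58/J pool. In RIIIS/J it had 5.01 and 5.66 (range 2.24, adjusted p = 5.86e-05). A further Rsad2 probe set followed with r = 0.90 and C58/J highest at 5.37 and 5.49. Another (r = 0.74) had NON/LtJ highest instead, at 4.31 and 4.25, and its strain differences did not pass the limma F test (adjusted p = 0.138). Cmpk2, a mitochondrial nucleotide kinase whose gene is the neighbour of Rsad2, did not share the order of the leading Rsad2 set. It was highest in MRL/MpJ at 7.93 and 7.72 (range 0.96, adjusted p = 0.0163), and the strain means of the neighbours correlated at r = 0.18. Rtp4, a chaperone of receptors that was found to be strongly interferon-induced, was highest in C58/J at 5.97 and 6.23, followed by AKR/J at a mean of 6.00, and lowest in 129S1/Sv1mJ at 4.03 and 4.47 (range 1.85, adjusted p = 0.000162). Bst2, or tetherin, which holds budding virus at the membrane, had 6.20 and 5.83 in C58/J and 4.88 and 4.81 in P/J (range 1.17, adjusted p = 0.0119). Parp14, an ADP-ribosyl transferase, ranged by 0.75 with RIIIS/J highest at 5.70 and 5.74 (adjusted p = 0.0126). Ifi35 was highest in BTBT T+tf/J at 9.09 and 9.06, followed by 129S1/Sv1mJ at a mean of 9.05. It was lowest in MRL/MpJ at 7.82 and 7.72 (range 1.302, adjusted p = 5.42e-05). A further Ifi35 set (r = 0.78) was highest in C3H/HeJ and lowest in SJL/J. Another (r = 0.90) was highest in NOD/LtJ and lowest in MRL/MpJ.

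The membrane proteins of the Ifitm family, which block the fusion of viruses with endosomes, gave 2 calls. Ifitm3 averaged 9.54 with a range of 0.90 (adjusted p = 0.0461), Ifitm2 averaged 7.91 with a range of 1.04 (adjusted p = 0.201), and Ifitm1 averaged 4.23 with a range of 1.39 (adjusted p = 0.0389). The calls of Ifitm3 and Ifitm1 ended without any of 33 and 19 single arrays. Ifitm2 and Ifitm3 lay lowest in BTBT T+tf/J and correlated at r = 0.68 over the strain means. Ifi27, a protein of mitochondrial and nuclear membranes, averaged 10.25 and ranged by 0.61 (adjusted p = 0.879). Samhd1, which breaks down deoxynucleotides, averaged 6.05 and ranged by 0.71 (adjusted p = 0.109).

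To order the strains, each of the 30 genes was centred on its mean within a sex and the 30 differences were averaged. c57BL/6J was highest, at 0.52 in the male and 0.45 in the female pool. C3H/HeJ had 0.33 and 0.36, C58/J 0.49 and 0.19, NZO/HILtJ 0.35 and 0.32, and AKR/J 0.19 and 0.35. At the low end, RIIIS/J had -0.35 and -0.54, 129S1/Sv1mJ -0.39 and -0.31, KK/HIJ -0.28 and -0.30, SM/J -0.23 and -0.24, and SWR/J -0.22 and -0.24. Both pools of these 10 strains lay on the same side of 0. From the top, BUB/BnJ (0.16), SJL/J (0.12), NOD/LtJ (0.11), NON/LtJ (0.03), CBA/J (0.02) and BALB/CByJ (0.01) had means above 0 in the middle of the order. Below 0 stood NZW/LacJ (-0.01), DBA/2J (-0.02), PL/J (-0.04), A/J (-0.07), MRL/MpJ (-0.07), BTBT T+tf/J (-0.08), FVB/NJ (-0.09), C57BR/cdJ (-0.13) and P/J (-0.16).

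The means of 4 strains depend most on Xaf1, a gene read by 2 probe sets that run in opposite directions. Leaving out Xaf1, the means were -0.29 in 129S1/Sv1mJ, -0.11 in P/J, -0.04 in BTBT T+tf/J and 0.05 in DBA/2J. With the further Xaf1 set they were -0.15, 0.02, 0.13 and 0.19, so that P/J, BTBT T+tf/J and DBA/2J changed sign and 129S1/Sv1mJ ranked 20 in place of 24. The means of CBA/J, BALB/CByJ and NON/LtJ, near 0 with the leading set, then fell to -0.03, -0.03 and -0.0004. CBA/J ranked 14 in place of 10. The 5 highest strains kept their order in both settings, which were chosen after seeing the data, and RIIIS/J stayed lowest.

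Male and female means correlated at r = 0.79 (rho = 0.72) over 25 strains, at 0.77 without the 2 strains farthest from the median in the male arrays, c57BL/6J and C58/J, and at 0.78 over the 23 strains other than SM/J and PL/J. The median SD of a strain's pair of pools was 0.06. Of the 24 gaps between neighbours in the order, 6 were larger than that SD, so most neighbours did not differ beyond their spread. The widest gap, 0.14, set c57BL/6J apart from C3H/HeJ, and C3H/HeJ, C58/J and NZO/HILtJ could not be separated. Pools disagreed most in CBA/J, at -0.16 in the male and 0.20 in the female, and in P/J, at 0.02 and -0.34. The female P/J array is one of the 2 with the widest 3' over 5' Gapdh excess, and the part of this in the gap was not tested.

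**Figure D2:**
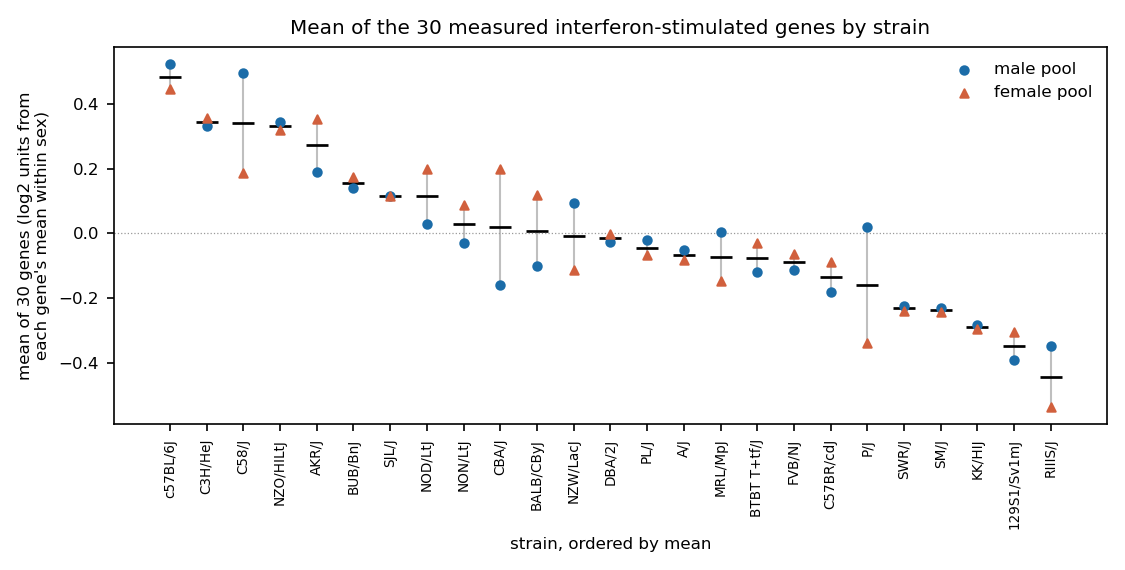
Mean of the 30 genes (log2 units from each gene's mean within its sex, vertical) in the male pool (circle) and female pool (triangle) of each of 25 strains, with the mean of both as a bar. c57BL/6J sits at the top at 0.52 and 0.45 and RIIIS/J at the bottom at -0.35 and -0.54, while CBA/J and P/J have pools that lie far apart.

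In the highest strains most of the 30 genes lay above their own mean. In c57BL/6J 26 of the 30 genes lay above their own mean and 5 were at their highest of all strains, Ifit1, Ifit2, Ifit3, Oasl2 and Igtp. C3H/HeJ had 27 genes above their mean but was the highest strain for 1. C58/J had 26 above and was highest for 7, and NZO/HILtJ had 21 above and was highest for 5. Those of NZO/HILtJ include Ifi27l2a (3.58 higher than the other strains) and Mx1 (1.67 higher), which weigh most in its mean. Mx1 passed the filter through the NZO/HILtJ arrays alone. At the bottom, 5 genes each lay above their mean in RIIIS/J, 129S1/Sv1mJ, SM/J and SWR/J.

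A co-varying core was taken from the male arrays alone, as the genes whose values correlated at r of at least 0.6 over 25 strains with the mean of the other 29. These were Rtp4, Igtp, Ifih1, Oasl2, Parp14, Ifit1, Trim25 and Oas1a. In the female arrays, which did not enter the choice, the same correlation was 0.85 for Rtp4, 0.79 for Ifih1, 0.60 for Igtp, 0.58 for Ifit1, 0.57 for Oasl2, 0.46 for Trim25, 0.46 for Oas1a and 0.28 for Parp14. All 28 pairs within the core had a positive r in the female arrays, with a median of 0.44, against a median of 0.17 and 178 positive of 231 pairs among the other 22 genes. Choosing in the female arrays instead gave 7 genes, Rtp4, Ifih1, Ifi27l2a, Irf9, Irgm1, Bst2 and Igtp, so that Rtp4, Igtp and Ifih1 were the members of both choices. The closest pair of all was Ifih1 with Rtp4 (r = 0.80 over strain means). The strains share their arrays between genes, and no test was made of these correlations.

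**Figure D3:**
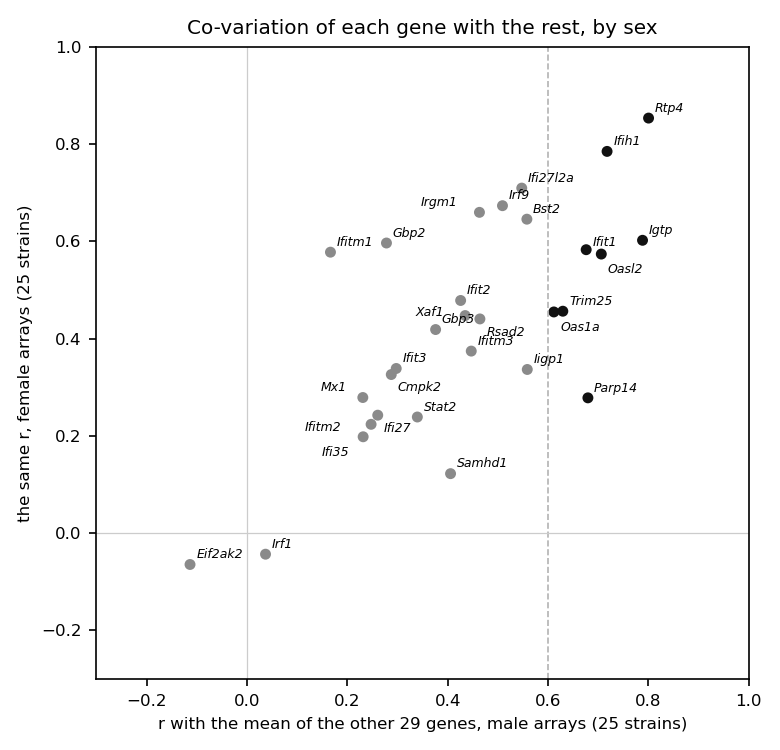
Pearson r over 25 strains of each of the 30 genes with the mean of the other 29, in male arrays (horizontal) and female arrays (vertical); black points passed the male threshold of 0.6, drawn as a dashed line. Rtp4 (0.80 and 0.85) and Ifih1 (0.72 and 0.79) are high in both sexes, and Irf1 and Eif2ak2 lie near 0 in both.

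By the core mean, c57BL/6J was highest, at 0.97 (male) and 0.83 (female). C58/J followed at 0.75 and 0.41 and AKR/J at 0.34 and 0.51, and 129S1/Sv1mJ was lowest at -0.64 and -0.51. The core was chosen in the male arrays, so a wider male value can follow from that choice. Among female arrays, c57BL/6J lay at 0.83 for the core against 0.45 for all 30 genes. Other female pools shifted as well, AKR/J further from 0 (0.51 against 0.35) and RIIIS/J nearer to it (-0.45 against -0.54). Among the 11174 genes outside the list, the 10 whose strain means were most like the core had r between 0.65 and 0.73 over 25 strains: Fut11, Zc3h7a, Phlpp2, Irgm2, Parp12, Ythdc2, Smc3, Podxl, Trim24 and 9430021M05Rik. Irgm2 (r = 0.70), a GTPase of the IRG family, and Parp12 (r = 0.69), an antiviral ADP-ribosyl transferase, are themselves known interferon-stimulated genes. Of the 10, 9430021M05Rik was called for strain (adjusted p = 6.36e-05), and the others were not. Their r with the core ran from 0.17 (Trim24) to 0.59 (9430021M05Rik) in male arrays alone. In female arrays it ran from 0.52 (9430021M05Rik) to 0.77 (Fut11). These 10 were picked as the highest r of all genes searched.

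Sequence before the gene starts was read because the known element of the pathway can be searched for. RefSeq windows on GRCm38.p6, from 250 bases before to 50 bases after the start, were at hand for 29 of the 39 genes. Of these 29, 24 were kept genes, and Rtp4, Parp14, Ifi27l2a and Mx1 were among those without a window. The letters GAAANNGAAA, on either strand, were found for 16 of the 29 (55.2%) and for 3.99% of 27025 genes in the same table. The letters TTCNNNGAA, a form bound by Stat family proteins, were found for 9 of the 29 (31.0%) and for 9.55% of all genes. Both counts describe the letters in a window and no binding was measured. The reference is of the strain C57BL/6J, and the other strains' sequences are not used here.

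The 250 bases before the start are shown for the 3 genes with the largest c57BL/6J differences from the strains of related name, and for Oasl2 and Rsad2, with GAAANNGAAA and its reverse complement TTTCNNTTTC in capitals. Igtp (chr11:58199306-58199555, plus strand) holds 1 match, Ifit1 (chr19:34640639-34640888, plus strand) and Ifit3 (chr19:34583279-34583528, plus strand) hold 2 each, Rsad2 (chr12:26456453-26456702, minus strand) holds 1 and Oasl2 (chr5:114896684-114896933, plus strand) holds 0.
Igtp: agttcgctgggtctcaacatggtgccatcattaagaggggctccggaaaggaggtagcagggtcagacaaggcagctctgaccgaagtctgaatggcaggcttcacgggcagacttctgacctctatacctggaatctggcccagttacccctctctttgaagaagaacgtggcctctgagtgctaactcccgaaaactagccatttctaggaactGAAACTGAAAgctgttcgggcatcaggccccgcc
Ifit1: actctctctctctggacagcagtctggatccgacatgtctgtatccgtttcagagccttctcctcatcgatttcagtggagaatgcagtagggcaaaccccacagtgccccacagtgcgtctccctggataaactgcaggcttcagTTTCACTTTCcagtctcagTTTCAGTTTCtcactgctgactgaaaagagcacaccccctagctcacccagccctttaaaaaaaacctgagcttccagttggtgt
Ifit3: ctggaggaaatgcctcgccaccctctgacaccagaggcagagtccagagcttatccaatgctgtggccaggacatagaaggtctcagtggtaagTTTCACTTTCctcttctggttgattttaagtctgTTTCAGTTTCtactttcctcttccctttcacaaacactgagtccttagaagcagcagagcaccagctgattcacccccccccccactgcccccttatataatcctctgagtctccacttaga
Rsad2: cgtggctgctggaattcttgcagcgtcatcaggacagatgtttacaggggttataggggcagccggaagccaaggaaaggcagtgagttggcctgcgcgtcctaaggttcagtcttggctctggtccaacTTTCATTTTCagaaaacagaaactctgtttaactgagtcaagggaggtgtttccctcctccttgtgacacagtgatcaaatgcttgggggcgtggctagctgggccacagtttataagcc
Oasl2: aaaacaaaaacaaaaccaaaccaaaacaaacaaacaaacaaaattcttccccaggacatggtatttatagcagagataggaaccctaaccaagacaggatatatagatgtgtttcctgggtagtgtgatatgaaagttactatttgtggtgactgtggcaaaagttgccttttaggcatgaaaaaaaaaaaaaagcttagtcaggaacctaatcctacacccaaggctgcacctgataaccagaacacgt

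Each strain was then set against the mean of the other 24, with an adjusted p under 0.05 over all probe sets and strains and at least 1 log2 unit required. Of the 30 genes, 12 were called in at least 1 strain, where 9.93% of all genes were. Their 32 calls fell in 14 strains. With single arrays left out in turn, 14 calls held throughout, and the other 18 each ended without 1 array of their own strain. Of these 18, the calls of Rtp4 in AKR/J, Ifit3 in BALB/CByJ and in C3H/HeJ and Iigp1 in C58/J also ended without single arrays of other strains. Mx1 in NZO/HILtJ is counted among the 12 genes, the 32 calls and the 14 that held. It passed the filter through the NZO/HILtJ arrays alone, so it had to differ there.

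In c57BL/6J 5 genes were higher, where 0.455% of all genes were. Igtp had 8.29 and 8.498 there, and in the other 48 arrays 5.59 at the lowest, 6.49 in the median and 7.70 at the highest, without overlap. The difference was 1.86 (SE 0.17, limma, adjusted p = 1.08e-08). Ifit1 stood at 6.09 and 6.26, against 2.78, 4.52 and 5.91 as the lowest, median and highest of the other arrays (difference 1.74, SE 0.27, adjusted p = 0.00013). Oasl2 stood at 8.25 and 7.73, against 4.88, 6.64 and 7.64 (difference 1.39, SE 0.21, adjusted p = 5.71e-05). Ifit1 and Oasl2 in c57BL/6J did not overlap the other strains either, and these 3 calls held without any single array. Each of these 3 genes was read by its leading probe set alone. Ifit3 at 7.25 and 7.55 was 1.23 higher than the other strains and Ifi27l2a at 8.67 and 7.65 was 1.41 higher. The other arrays reached 7.41 in Ifit3, above the male c57BL/6J pool, and 10.49 in Ifi27l2a, above both. The Ifit3 call ended without either c57BL/6J array (adjusted p up to 0.134) and the Ifi27l2a call without the male one (0.288).

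Whole ganglia were measured, and fewer cells of a type cannot be told apart from less RNA per cell. In c57BL/6J the mean of 12 macrophage markers was -0.003 from its average over strains, that of 13 sensory neuron markers 0.14 above it and that of 5 neutrophil markers 0.73 above it. Of the 8 neutrophil markers on the array, Mpo, Elane and Csf3r stayed under the filter and 4 of the 5 tested differed between strains. The part of these markers in the result was not tested.

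C57BR/cdJ and C58/J belong to the same old family of laboratory strains as c57BL/6J. Set against the mean of both, c57BL/6J had 5 of the 30 genes higher, where 1.71% of all genes were, and 1 lower, where 1.17% were. Ifit3 had 7.25 and 7.55 in c57BL/6J, against 4.27 and 3.93 in C57BR/cdJ and 5.32 and 4.32 in C58/J, a difference of 2.94 (SE 0.33, adjusted p = 6.72e-07). Ifit1 had 6.09 and 6.26 in c57BL/6J, against 3.18 and 3.57 in C57BR/cdJ and 4.96 and 4.80 in C58/J, a difference of 2.04 (SE 0.33, adjusted p = 0.00021). Igtp had 8.29 and 8.498, against 6.00 and 7.24 in C57BR/cdJ and 7.43 and 7.70 in C58/J, a difference of 1.298 (SE 0.20, adjusted p = 0.000156). In each of these genes both c57BL/6J pools lay above all 4 pools of the related strains.

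Oasl2 (0.99, adjusted p = 0.0212) and Ifit2 (0.97, adjusted p = 0.0127) were the other genes higher in c57BL/6J. The Oasl2 call ended without either c57BL/6J array, without either C58/J array or without the female C57BR/cdJ array (adjusted p up to 0.211), and that of Ifit2 without either c57BL/6J array (up to 0.166). Eif2ak2, at 6.11 and 5.93 in c57BL/6J against 6.68 and 6.9996 in C57BR/cdJ and 6.71 and 6.67 in C58/J, was lower by 0.74 (SE 0.16, adjusted p = 0.00499). Its call ended without the female c57BL/6J array (adjusted p = 0.132). At an unadjusted p under 0.05, 10 of the 30 genes were higher in c57BL/6J, where 10.2% of all genes were.

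**Figure D4:**
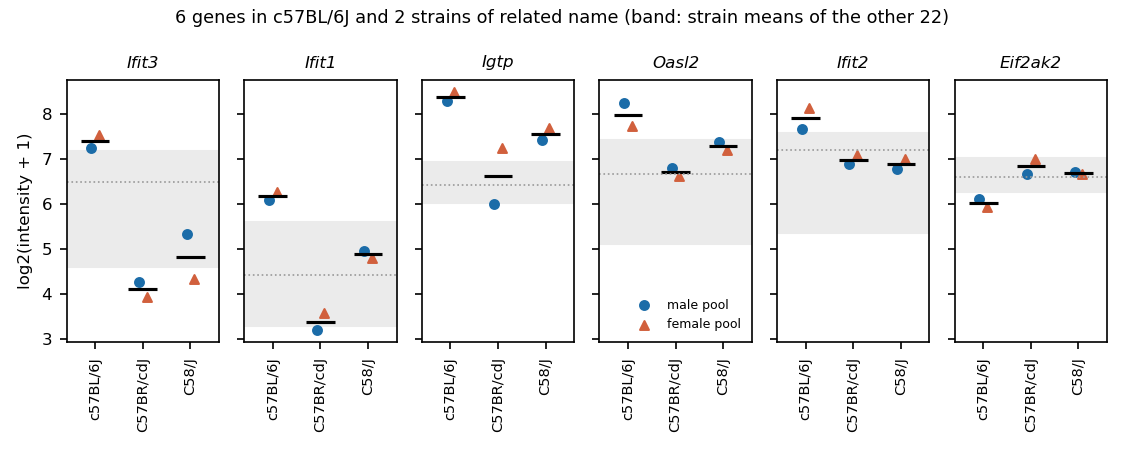
log2(intensity + 1) of the 6 genes that differed between c57BL/6J and the mean of C57BR/cdJ and C58/J, with male pools as circles, female pools as triangles and strain means as bars; the grey band spans the strain means of the other 22 strains and the dotted line is their median. In Ifit3, Ifit1 and Igtp both c57BL/6J pools lie above both related strains, and in Eif2ak2 both lie below.

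In C58/J 4 genes were higher than in the other strains (0.589% of all genes were), namely Rsad2, Ifi27l2a, Rtp4 and Iigp1, and 1, Ifit3, was lower (0.303%). Rsad2 had 7.83 and 7.31 in C58/J, against 5.01, 6.15 and 7.35 as the lowest, median and highest of the other 48 arrays, a difference of 1.37 (SE 0.20, adjusted p = 4.35e-05) that held without any single array. Rtp4 was 1.12 higher and Ifi27l2a 1.31 higher, and both calls ended without the male C58/J array. Iigp1 was 1.07 higher, a call that any of 7 single arrays ended. Ifit3 was 1.45 lower, and that call ended without the female C58/J array. Ifi27l2a was thus called higher in c57BL/6J and in C58/J, and Ifit3 in opposite directions.

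RIIIS/J stood at the other end, with 4 genes lower than in the other strains, where 0.428% of all genes were. Ifit2 had 5.22 and 5.47 there, against 5.32, 7.14 and 8.14 as the lowest, median and highest of the other arrays, and was 1.70 lower (difference -1.70, SE 0.19, adjusted p = 4.89e-07). Only the female MRL/MpJ pool, at 5.32, fell within the RIIIS/J values. Ifi27l2a had 4.30 and 2.87 and a difference of -3.36 (SE 0.30, adjusted p = 6.63e-09). Ifit1 (-1.27) and Ifit3 (-1.70) were also lower, but these calls ended without the male and the female RIIIS/J array. In the same strain the mean of 7 Schwann cell markers lay 1.04 below its average over strains, at -1.04, the lowest of all, and its part in the result was not tested. In 129S1/Sv1mJ, where 0.857% of all genes were lower, Oasl2 at 4.88 and 5.33 was lower with a difference of -1.61 (SE 0.21, adjusted p = 5.46e-06). The leading Xaf1 probe set was called there too, but its further set ran the other way.

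Some calls also fell in strains where the rest of the list moved against them or moved little. A call was counted as a departure when the mean of the other 29 genes had the opposite sign in that strain or differed from the other strains by under 0.3. This held for 15 of the 32 calls, in 7 genes: Ifi27l2a, Ifih1, Ifit1, Ifit2, Ifit3, Rtp4 and Xaf1. The 4 of Xaf1 have no settled direction, which leaves 11 of 28 calls in the other 6 genes. The tally depends on Xaf1 in the mean as well, with 13 of 28 when it is left out and 18 of 28 with its further set. Those of Ifih1 and Rtp4 were both in AKR/J, where 0.419% of all genes were called higher. The other 29 genes were 0.26 higher there, near the limit. For Ifi27l2a the other genes also moved the same way as the call in NZO/HILtJ (0.24) and in KK/HIJ (-0.27), near the limit as well.

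Ifi27l2a encodes a small hydrophobic protein of the same family as Ifi27 and had the widest range of all 30 genes, 7.16 (adjusted p = 2.67e-10). NZO/HILtJ stood at 10.49 in the male and 10.0003 in the female pool, against 2.87, 6.79 and 8.67 as the lowest, median and highest of the other 48 arrays, a difference of 3.58 (SE 0.30, adjusted p = 1.86e-09). In P/J it had 3.26 and 2.90, against a median of 6.84 in the other arrays, a difference of -3.88 (SE 0.30, adjusted p = 3.24e-10). Of all genes, 0.384% were called higher in NZO/HILtJ and 0.777% lower in P/J. The other 29 genes differed in NZO/HILtJ by 0.24 and in P/J by -0.04. Only RIIIS/J, at 4.30 and 2.87, was as low as P/J, and all other strains had both pools above 5. Both P/J values and the female RIIIS/J value lay under the filter level of 4, which limits the size of these differences. KK/HIJ, at 6.18 and 5.27, was called lower too (0.696% of all genes were), a call that ended without its female array.

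Over all 25 strains, the extreme ones included, the order of Ifi27l2a ran close to that of the list. c57BL/6J, C3H/HeJ and C58/J followed NZO/HILtJ with means of 8.16, 8.12 and 8.07, and the rank correlation of its strain means with the mean of the other 29 genes was 0.84 (r = 0.66). Male and female values of Ifi27l2a correlated at r = 0.90 and rho = 0.74. Its neighbour on chromosome 12, Ifi27, had 10.47 and 10.64 in NZO/HILtJ and 10.37 and 9.52 in P/J, its highest and lowest strain, but was not called. The lower P/J value is that of the female array with the Gapdh excess, whose part was not tested. The genes most like Ifi27l2a over the 25 strain means were Phactr3 (r = 0.69), Nmb (0.69), Zmym1 (0.66), Prkar2b (0.65) and Bcl3 (0.65). Without the 2 strains farthest from the median of Ifi27l2a these became 0.48, 0.25, 0.72, 0.41 and 0.53.

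Mx1, a dynamin-like GTPase that blocks influenza virus, is known to be defective in most laboratory mouse strains. It was detected above 4 in the pools of NZO/HILtJ alone, with 5.13 in the male and 4.50 in the female, against 3.03, 3.13 and 3.39 as the lowest, median and highest of the other 48 arrays. The difference was 1.67 (SE 0.09, adjusted p = 3.08e-13). Since Mx1 passed the filter only through these 2 arrays, it had to differ, and the value is a description of the strain. The other 29 genes were 0.30 higher in NZO/HILtJ, just past the limit for a departure. Mx2, a relative of Mx1 that blocks other viruses, stayed between 2.36 and 2.61 in all arrays.

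Xaf1, a gene linked to cell death, was read by 2 probe sets that ran in opposite directions. The leading set was low in 129S1/Sv1mJ at 5.16 and 4.61, in DBA/2J at 4.65 and 5.47, in P/J at 5.82 and 5.16 and in BTBT T+tf/J at 5.88 and 5.83, where the median of the other arrays was 7.26. The differences were -2.21, -2.03, -1.58 and -1.20 (adjusted p = 3.14e-08, 1.62e-07, 1.31e-05 and 0.000661). Of all genes, 0.857% were called lower in 129S1/Sv1mJ, 0.553% in DBA/2J, 0.777% in P/J and 0.509% in BTBT T+tf/J. The further set was high in the same strains, with 8.21 and 7.87 in 129S1/Sv1mJ, 8.44 and 8.31 in DBA/2J, 8.40 and 7.90 in P/J and 9.41 and 8.95 in BTBT T+tf/J. It lay above 4 in 9 of 50 arrays, these 8 pools and the male NON/LtJ pool. Strain means of both sets correlated at r = -0.92 but at rho = -0.26, since the relation rests on those 4 strains. The set chosen thus decides the direction, and no direction is given for the gene.

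**Figure D5:**
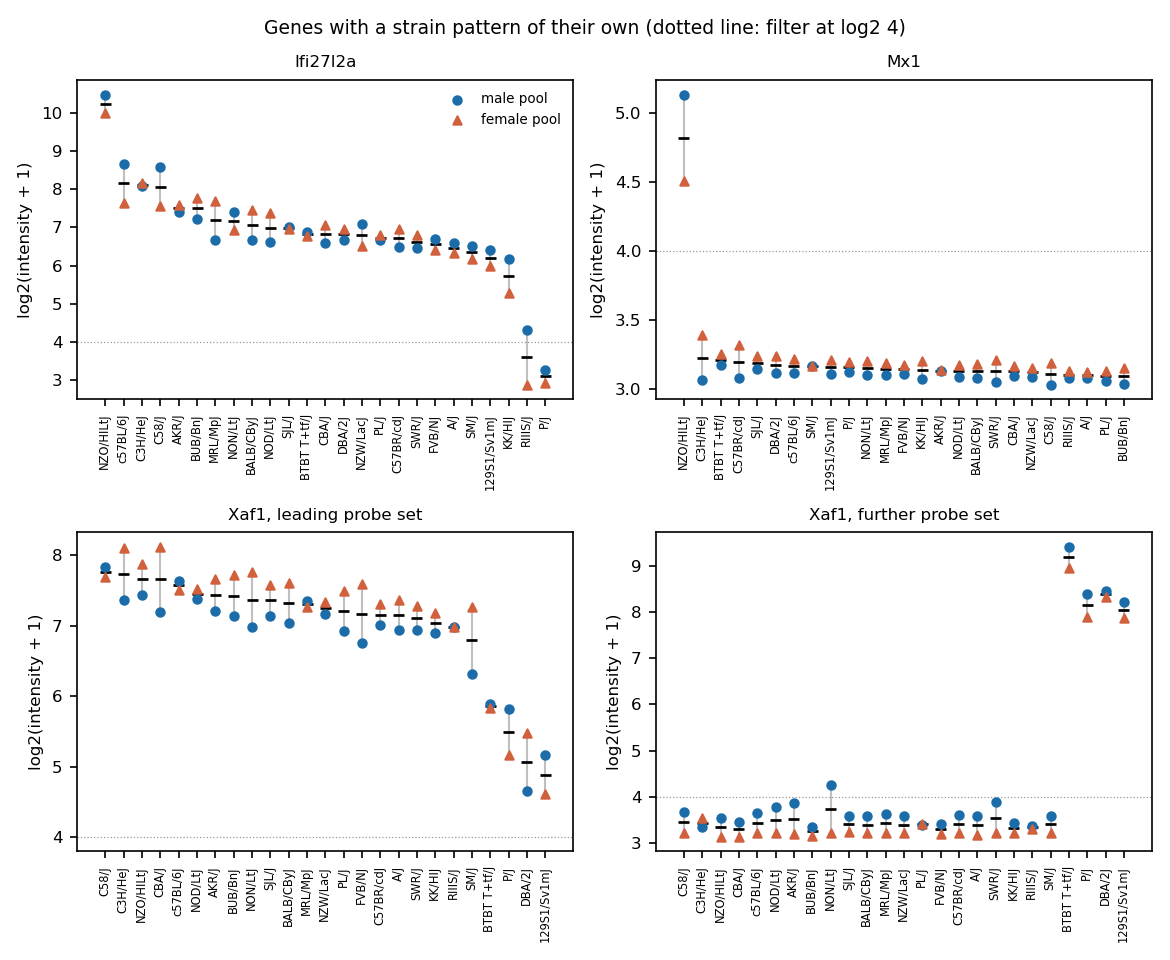
log2(intensity + 1) in male pools (circles) and female pools (triangles) of 25 strains, with strain means as bars, for Ifi27l2a, Mx1 and both Xaf1 probe sets; strains are ordered by mean in each panel, with the order of the leading set kept for both Xaf1 panels, and the dotted line is the filter at 4. Ifi27l2a spans 3.08 in P/J to 10.25 in NZO/HILtJ, Mx1 leaves the floor in NZO/HILtJ, and the 4 strains lowest in the leading Xaf1 set are the highest in the further set.

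The Ifit genes gave 6 of the departures. Ifit3 was lower in C57BR/cdJ at 4.27 and 3.93, against 3.96, 6.45 and 7.55 as the lowest, median and highest of the other 48 arrays (difference -2.20, SE 0.28, adjusted p = 3.76e-06), and this call held without any single array. Ifit1 was lower in that strain as well (-1.17), where 0.482% of all genes were, while Ifit2, with 6.88 and 7.08, was not called. Ifit1 was higher in BTBT T+tf/J at 5.91 and 5.30 (1.15, adjusted p = 0.0133), where 0.482% of all genes were, and Ifit2 was lower in MRL/MpJ at 6.28 and 5.32 (-1.23, adjusted p = 0.000108), where 0.5% were. These calls ended without, in turn, either C57BR/cdJ array, the male BTBT T+tf/J array and the female MRL/MpJ array. The male BTBT T+tf/J array is the one with the widest 3' over 5' Gapdh excess, and its part in the result was not tested. Ifit3 was also called in BALB/CByJ, lower by 1.03 (difference -1.03), where 0.232% of all genes were. In C3H/HeJ, where 0.437% of all genes were higher, Ifit3 (1.01) and Ifi27l2a (1.37) were called higher and did not count as departures.

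Between the sexes, Oasl2 was called higher in males (by 0.21) and 13 of the 30 genes lower, where 24.7% and 34.3% of all genes were called. The largest male minus female differences were -1.03 for Ifitm1, -0.79 for Rtp4, -0.61 for Igtp and -0.56 for Oas1a. The lowest intensities of the arrays also differed between the sexes without overlap, as given above. A difference of sex and one of the arrays' processing cannot be told apart here.

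Other parts of the pathway were read for the same strains. All 9 interferon genes on the array stayed under the filter, with 1 value above 4 (Ifna5, in the female FVB/NJ pool at 4.005). Of 14 receptor and signalling genes tested 4 were called for strain (28.6%, near the 26.1% of all genes), Stat3 (range 1.21), Il10rb (1.01), Irf3 (0.87) and Ifnar1 (0.77). Ifnar1, the receptor subunit, was highest in A/J at 6.94 and 6.79. Of 11 genes of nucleic acid sensing 3 were called (27.3%, also near the share of all genes), the 3 subunits of RNase H2, an enzyme that removes RNA from DNA. Rnaseh2a (7.83), Rnaseh2b (6.53) and Rnaseh2c (7.42) all had their highest strain mean in 129S1/Sv1mJ.

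A list of 20 further interferon-stimulated genes that passed the filter followed the strain order of the 30 genes at r = 0.76 over 25 strains. Yet 3 of the 20 were called for strain (15%, against the 26.1% of all genes). Gbp7 was one of them, with 7.21 and 7.76 in AKR/J and 4.22 and 4.30 in MRL/MpJ (range 3.22, adjusted p = 2.43e-09), and Oas1c and Pml were the others. Genes of antigen presentation, which interferon gamma is known to raise, had 9 of 12 called but no common order with the 30 genes (r = 0.01).

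Markers of cell types were compared with the same order. Neutrophil markers had r = 0.43 with the mean of the 30 genes and were highest in C3H/HeJ, where their mean lay 2.44 above its average, and in AKR/J at 1.80. The neutrophil genes S100a8 and S100a9 had means of 10.75 and 10.88 in C3H/HeJ. The same r was 0.36 for endothelium, 0.35 for sensory neurons, 0.16 for macrophages and 0.01 for the 3 lymphocyte markers tested of 15 on the array. With the core alone it was 0.57 for sensory neurons and 0.23 for neutrophils. BUB/BnJ had the lowest neutrophil mean, -1.56, and ranked 6 among the strains in the mean of the 30 genes. What part these cells had in the strain order was not tested.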

How the data were processed

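Each array's table lists 1 deposited linear intensity for every probe set. The authors produced these intensities by GCRMA, run in R 2.6.2 according to the submitters' notes on processing. No further step is given in the sources used here. All values were taken to log2(intensity + 1) of the deposited intensities. Of 45101 probe sets, 64 controls were left out, and 22205 lay above 4 on that scale in 2 or more arrays and were tested. Genes were named from the platform's probe table, 34945 probe sets with 1 symbol, 932 with several and 9160 with none. The leading probe sets of Ifi27, Ifi35 and Gbp2 have suffixes that Affymetrix gives to sets that may match related transcripts. Probes were not compared with the sequences of the strains, and their part in the strain differences was not tested.

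Strain, single-strain and sex differences came from 1 fit with limma 3.58.1 (lmFit and eBayes, R 4.3.3) of strain and sex, with Benjamini-Hochberg adjustment over all probe sets, and over all strains for single strains. The male and female pool of a strain were paired by strain name. The p-values rest on the spread between these pools over all strains, after the sex term and moderated over probe sets. That spread also holds any difference between the sexes that varies by strain. The fit was tested on simulated data. The members, the other gene lists and the rules were chosen with earlier results of these data known. Members are named throughout. Other genes are the 10 most like the core, the 5 most like Ifi27l2a, up to 4 called genes with the widest range in each list, and marker genes. Alternatives changed the offset, filter, normalization, probe set, sex term and the arrays used. The number of arrays limits the precision.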

Additional observations from a re-analysis of the deposited data

How the results depend on the processing

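The replicate of a strain is its sex, so the sex term is the replicate block, and without it 14 of the 30 genes and 2752 probe sets were called for strain (main values 24 and 5475), and 2 genes were higher in c57BL/6J than in C57BR/cdJ and C58/J (main value 5). With the second probe set of the 12 genes that have one (Trim30a among them), 7 were called for strain and 0 were higher in c57BL/6J than in the other 24 strains or than in the related strains, as none of the genes called higher there has a second set. Of the 12, 4 were higher and 5 lower in males. The Xaf1 differences then turned, to 3.98 in 129S1/Sv1mJ, 5.16 in BTBT T+tf/J, 4.33 in DBA/2J and 4.09 in P/J. Leaving out 1 array at a time gave 20 to 27 genes and 4805 to 8304 probe sets called for strain, the last without the male P/J array. It gave 4 to 6 genes higher in c57BL/6J than in the other strains, 3 to 5 higher and 1 lower than in the related strains, and 0 to 2 higher and 13 to 14 lower in males. Genes higher in males numbered 2 after quantile normalization, 2 after centring array medians, 0 without SM/J and PL/J and 2 without the male BTBT T+tf/J and female P/J arrays (main value 1), and 7 of 21 were lower in males with the filter at 6 (main value 13). The c57BL/6J mean of the 30 genes minus that of the other strains was 0.50, 0.35 as a median over genes, 1.01 in SD units with genes scaled, 0.40 with an offset of 16, and, in settings chosen after seeing the data, 0.49 without SM/J and PL/J, 0.50 leaving out Xaf1 and 0.46 with its further set, and c57BL/6J ranked highest in each. A core threshold of 0.7 left 4 genes. Of the 24 calls for strain, 19 held in all 50 fits without 1 array and 13 under every other alternative. Of the results for single genes, 18 lost their call without the sex term, 11 with the offset of 16, 7 without a filter, 4 without SM/J and PL/J, 4 without the male BTBT T+tf/J and female P/J arrays, 3 after quantile normalization, 3 with the second probe set and 2 after centring array medians. Fewer genes or arrays enter some of these settings, and otherwise the cause was not tested. Intensities near the floor limit what can be read for Mx1, Oas1a and the 7 genes under the filter. Low values of Ifitm1, Ifit1, Irgm1, Ifih1 and Iigp1, above 4 in 31, 32, 33, 41 and 43 arrays, are limited in the same way. So are those of Ifi27l2a in P/J (3.26 and 2.90) and in the female RIIIS/J pool (2.87).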

Other observations

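Of the 7 genes under the filter, Usp18, which removes Isg15 from proteins and restrains the interferon receptor, and Trim30a, a ubiquitin ligase family member, each lay above 4 in 1 array, both times in C58/J. Usp18 stood at 4.19 in the male and 3.43 in the female C58/J pool and had a mean of 3.75 in c57BL/6J, while the median of strain means was 2.63. Trim30a had 3.22 and 4.44 in C58/J on its leading probe set. A further Trim30a probe set passed the filter in the 2 C58/J arrays alone, at 4.48 and 4.22, with a median of strain means of 2.77. Mx1, just inside the filter, likewise passed through the 2 arrays of 1 strain. Oasl1, Irf7, Mx2, Dhx58 and Zbp1 had no array above 4, and Zbp1 reached 3.57 at the highest.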
